A study of Homo sapiens with 6 samples.

Results

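Break sites were examined where the hg19 assembly runs into a large gap, which is mostly where it reaches a centromere. They came from END-seq, in which an adapter is joined to the free ends of DNA double-strand breaks (DSBs) and each read starts at an end and points away from it, so that a reverse-strand peak lies to the left of a break and a forward-strand peak to its right. HCT116 human colorectal carcinoma cells received 10 µM camptothecin (CPT), which traps topoisomerase I on DNA, for 10 min (CPT10) or 20 min (CPT20). The titles attach µM to both 10 and 20, and the times follow the treatment protocol and the design text instead. There were 2 biological replicate libraries per time and a forward and a reverse peak list per library, 8 lists in all. Untreated cells (Ctrl, 2 samples) have no list analysed here, so no level is given for them, and how much of the signal near gaps is present without CPT was not tested. The line is unmodified in all groups, and treatment time is the only stated difference between those compared.

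The peaks and sites described lie on chromosomes 1 to 22 within 1 Mb of an assembly gap of at least 1 Mb. There were 24 such gaps, 19 of them at or beside a centromere and 5 covering a chromosome's short arm, and they left 40 gap sides with sequence, 18 on the short-arm side and 22 on the long-arm side. These sides held 38.8 Mb of sequenced bases, 1.45% of those on the 22 chromosomes. Of 4267178 peaks in all lists and on all chromosomes, 50591 were members. A site joined a reverse peak with its closest forward peak, where that peak overlapped the reverse one or lay under 150 bp to its right. Sites of 1 library that overlapped were merged. CPT10 replicates 1 and 2 had 1469 and 885 member sites of 101303 and 54016 on the 22 chromosomes, and CPT20 replicates 1 and 2 had 1104 and 425 of 84786 and 18506. A site that overlapped a site of the other replicate of its time by at least 1 bp was replicated, and merging such sites over both times gave 253 member regions of 5581. Of these 253 regions, 118 were replicated at both times, 95 at 10 min only and 40 at 20 min only.

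Human centromeres are built on alpha satellite, a family of short monomers in tandem arrays that can be ordered further into long higher-order units. Many monomers carry the CENP-B box, the motif bound by the centromere protein CENP-B, and the kinetochore forms on part of the array. Beside the alpha satellite of some chromosomes lie satellites II and III, which are built from variants of the pentamer GGAAT. Assemblies of this age hold only the edges of these arrays and leave the rest as a gap, so that many copies in the cell have few counterparts in the reference.

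The reference sequence under the leading regions held the motifs of both satellite kinds. The windows printed next are 200 bases of the plus strand of hg19, centred on the median forward summit of the 4 libraries. They are shown because they lie under the strongest regions of 6 leading gap sides and under the best region on the short-arm side of chromosome 21, which is of another kind. Capitals mark the CENP-B box (essential bases TTCG, any 4, A, any 2, CGGG, searched on both strands, with a flanking base on each side) or, in the 2 windows rich in it, GGAAT and its reverse complement ATTCC.
1p, chr1:121485224-121485423: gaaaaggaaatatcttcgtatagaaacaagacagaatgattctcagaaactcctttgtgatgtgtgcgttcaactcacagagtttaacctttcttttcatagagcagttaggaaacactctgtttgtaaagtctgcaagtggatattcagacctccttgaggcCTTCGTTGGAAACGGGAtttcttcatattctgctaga
7q, chr7:61968885-61969084: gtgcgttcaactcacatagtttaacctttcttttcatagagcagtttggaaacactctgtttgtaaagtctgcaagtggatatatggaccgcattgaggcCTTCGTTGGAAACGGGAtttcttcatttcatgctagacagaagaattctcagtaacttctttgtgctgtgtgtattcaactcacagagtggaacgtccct
6p, chr6:58778321-58778520: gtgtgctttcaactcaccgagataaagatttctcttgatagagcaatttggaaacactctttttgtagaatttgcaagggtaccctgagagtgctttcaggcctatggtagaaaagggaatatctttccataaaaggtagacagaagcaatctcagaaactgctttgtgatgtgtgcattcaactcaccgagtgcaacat
10q, chr10:42385145-42385344: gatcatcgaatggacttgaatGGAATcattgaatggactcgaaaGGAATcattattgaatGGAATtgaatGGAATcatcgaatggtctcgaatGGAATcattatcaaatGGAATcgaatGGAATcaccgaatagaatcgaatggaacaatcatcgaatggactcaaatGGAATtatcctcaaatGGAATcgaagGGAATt
16q, chr16:46391940-46392139: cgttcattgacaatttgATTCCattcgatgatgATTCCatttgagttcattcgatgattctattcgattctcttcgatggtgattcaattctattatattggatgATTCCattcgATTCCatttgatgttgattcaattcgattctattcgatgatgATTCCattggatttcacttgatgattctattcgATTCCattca
2p, chr2:92325048-92325247: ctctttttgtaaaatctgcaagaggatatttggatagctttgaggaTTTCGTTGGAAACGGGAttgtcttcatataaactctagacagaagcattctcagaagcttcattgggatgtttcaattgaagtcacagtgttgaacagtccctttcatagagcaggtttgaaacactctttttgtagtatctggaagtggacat
21p, chr21:9826129-9826328: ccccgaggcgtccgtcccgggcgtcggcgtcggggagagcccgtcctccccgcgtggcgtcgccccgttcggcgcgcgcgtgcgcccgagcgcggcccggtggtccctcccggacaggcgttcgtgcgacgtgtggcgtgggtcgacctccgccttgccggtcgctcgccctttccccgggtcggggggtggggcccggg
The windows of chromosomes 1, 7 and 2 each hold 1 complete CENP-B box. The window of chromosome 6 holds no complete box, although its region holds 8 of them. The highest forward summits of that region ranged over 2581 bp between libraries. Their median fell between them, so this window holds the highest forward summit of no library. The windows of chromosomes 10 and 16 hold 10 and 6 matches to GGAAT. The window of chromosome 21 holds neither and has a G+C content of 80.5%, against 33.0 to 41.5% in the other windows.

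The strongest END-seq peaks of the autosomes lay in this small part of the genome. Of the 50 peaks with the highest −log10 q of each list, between 28 and 44 were within 1 Mb of a large gap, although that space holds 1.45% of the bases. Fold enrichment is the summit height over the height expected for the list, with a constant of 1 added to both. Its highest value was 6206 for a forward peak of CPT10 replicate 1 near a gap and 743 beyond 1 Mb. For CPT10 replicate 2 these values were 2639 and 381, and for CPT20 they were 4361 and 386 (replicate 1) and 2694 and 111 (replicate 2). In the reverse lists the highest values near gaps were 2474 to 4590 and those beyond 1 Mb 152 to 270. These are the extremes of each list and are given as a description.

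Peaks as such were not denser near the gaps. Counting both strands, CPT10 replicates 1 and 2 had 438 and 325 peaks per Mb of sequence within 1 Mb against 516 and 383 elsewhere, and CPT20 replicates 1 and 2 had 356 and 185 against 446 and 210. The density near gaps was lower in each library, with a mean log2 ratio of −0.24 ± 0.0015 (SD, n = 2) at 10 min and −0.25 ± 0.10 (n = 2) at 20 min. An exact sign-flip permutation test over the 4 libraries gave a two-sided p = 0.125, the smallest that 4 libraries allow. The log2 ratio turned to 0.47 when the count was limited to strong peaks, defined next.

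Strong peaks, whose −log10 q was 10 or more, took a larger share of the peaks near gaps. They were 18.6% and 4.8% of member peaks in CPT10 replicates 1 and 2 and 13.1% and 6.90% in CPT20 replicates 1 and 2, against 15.7%, 2.17%, 11.7% and 2.92% of all peaks on the 22 chromosomes. The mean log2 ratio to the share beyond 1 Mb was 0.71 ± 0.59 (SD, n = 4), higher in 4 of 4 libraries, with an exact sign-flip p = 0.125. The ratio itself was 1.19 and 1.12 in the replicates numbered 1 and 2.25 and 2.41 in those numbered 2. The replicates numbered 1 also had the longer lists and the higher expected summit heights at each time (1.41 to 1.44 fragments against 0.73 at 10 min, 1.20 to 1.23 against 0.86 at 20 min), and the part of depth in this difference was not tested.

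The strong share was highest in the first 50 kb. Within 10 kb of a gap 47.2 and 39.2% of peaks at 10 min and 44.2 and 38.6% at 20 min were strong, and the density rose to 398 to 674 peaks per Mb. Between 10 and 50 kb the strong share was 19.7 to 36.0%. From 50 to 100 kb it was 17.2 and 2.81% at 10 min and 10.3 and 4.44% at 20 min, against 15.6, 2.14, 11.7 and 2.86% beyond 1 Mb in the same order. From 100 to 200 kb it was 19.5, 5.48, 13.2 and 6.38%, above the rest in all 4 libraries.

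**Figure D1:**
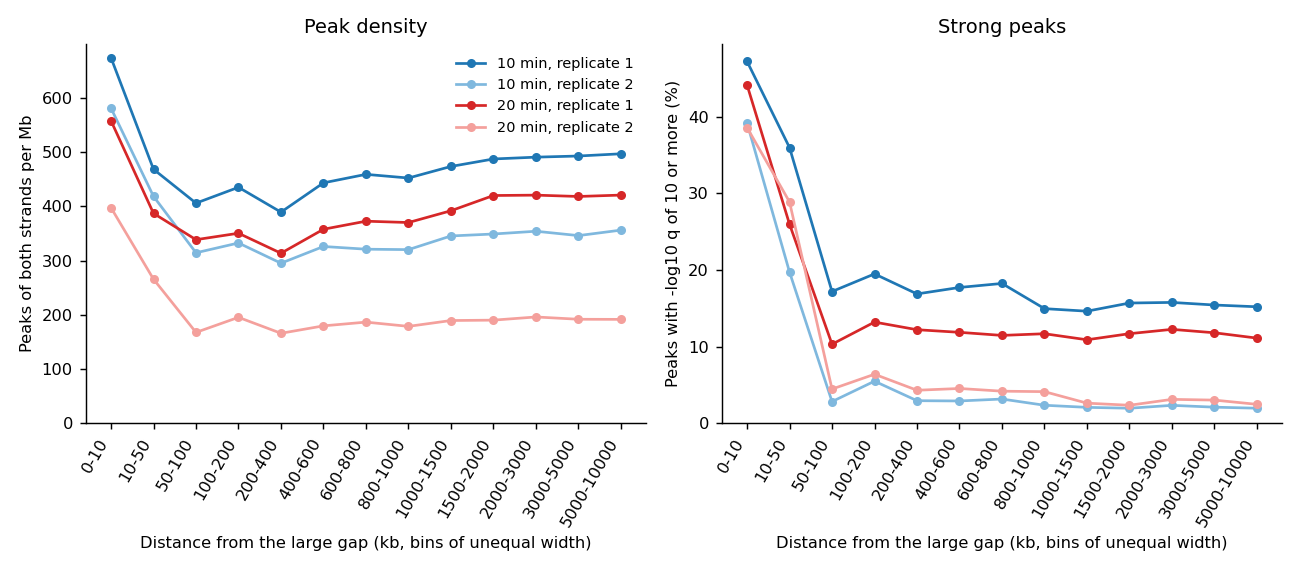
Peaks of both strands per Mb of sequenced bases (left) and the share of strong peaks, whose −log10 q was 10 or more (right) by distance from the nearest large gap, 1 line per library. In each library both measures are highest within 10 kb, where 38.6 to 47.2% of peaks are strong, and the strong share falls to 2.81 to 17.2% between 50 and 100 kb.

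Sites near gaps were found again in the other replicate more often than sites elsewhere. The replicated share of member sites was 16.0% in CPT10 replicate 1 (235 of 1469, 95% Wilson interval 14.2 to 17.96%) and 28.5% in CPT10 replicate 2 (252 of 885, 25.6 to 31.5%). It was 15.9% in CPT20 replicate 1 (176 of 1104, 13.9 to 18.2%) and 44% in CPT20 replicate 2 (187 of 425, 39.4 to 48.8%). Over all sites of the 22 chromosomes the share was 3.94%, 7.52%, 3.52% and 16.5% in the same order. The intervals cover counting error only, because PCR duplicates were kept and neighbouring peaks are not independent. The ratio to the share beyond 1 Mb was 4.25 and 3.97 at 10 min and 4.75 and 2.77 at 20 min, higher in 4 of 4 libraries (mean log2 ratio 1.95 ± 0.34, SD, n = 4, exact sign-flip p = 0.125). The 2 libraries of a time score the same overlaps, so these 4 values are not independent, although the test treats them as such. Member sites were also wider, with medians of 338 to 398 bp against 299 to 349 bp elsewhere, and the part of width in the replicated share was not tested directly. Where sites had to overlap by 50% of both, the mean log2 ratio was 2.61.

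Member regions also recurred more often between the times. Of the 220 regions replicated at 10 min near gaps, 125 (56.8%) overlapped a region replicated at 20 min, against 25% of all 3831 such regions on the 22 chromosomes. Of the 166 regions replicated at 20 min, 126 (75.9%) overlapped a 10 min region, against 33.3% of all 2790. Within 1 Mb of a gap lay 14.0% of the regions replicated at both times, 3.30% of those replicated at 10 min only and 2.15% of those at 20 min only. The regions of both times also lay closest to the gaps, at a median of 43.1 kb with 64 of 118 within 50 kb, whereas the medians were 308 kb and 429 kb for the other classes. Replication at a single time often rested on the pairing of peaks in 1 library: 48 of the 95 regions of 10 min only had a site in at least 1 CPT20 library, and 25 of the 40 regions of 20 min only had one in a CPT10 library. Sites in both libraries of the other time were found for 8 and 1 of these regions. Only 13 of the 95 and 0 of the 40 had no peak of either strand at the other time.

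Fewer sites were found near gaps at 20 min in both same-numbered pairs of libraries, and the unpaired ranges overlapped. The counts were 1469 and 885 at 10 min and 1104 and 425 at 20 min, a log2 ratio of group means of −0.62 (exact permutation test of 2 against 2 libraries, two-sided p = 0.667, where the smallest possible is 0.333). Within the pairs the log2 ratio was −0.41 and −1.06, a mean of −0.74 (exact sign-flip permutation p = 0.5, the smallest that 2 pairs allow). Beyond 1 Mb the ratio of means was −0.59 and the ratios within pairs were −0.25 and −1.56. With each list limited to at most the number of peaks in the shortest list the ratio near gaps was −0.02.

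Regions were spread unevenly over chromosomes and sides. The short-arm side of chromosome 21, a stretch of 1427 kb of sequence between a short-arm gap and the centromere gap, held 29 of the 118 regions of both times. The short-arm side of chromosome 2 held 18, the long-arm sides of chromosomes 16 and 10 held 12 and 11, each side of chromosome 8 and the short-arm side of chromosome 17 held 8, and the long-arm side of chromosome 15 held 6. The sides of chromosome 2 were set by its larger gap, and its short-arm side also held a gap from 90545104 to 91595103. Some of its regions lay to the right of that gap and nearer to it than to the larger one. The remaining 18 regions of both times lay on 10 other sides, and 22 of the 40 sides held none. Chromosomes 12, 13 and 22 held no replicated region of either time. Regions of both times numbered 69 on the short-arm sides, in 17.9 Mb, and 49 on the long-arm sides, in 20.96 Mb.

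**Figure D2:**
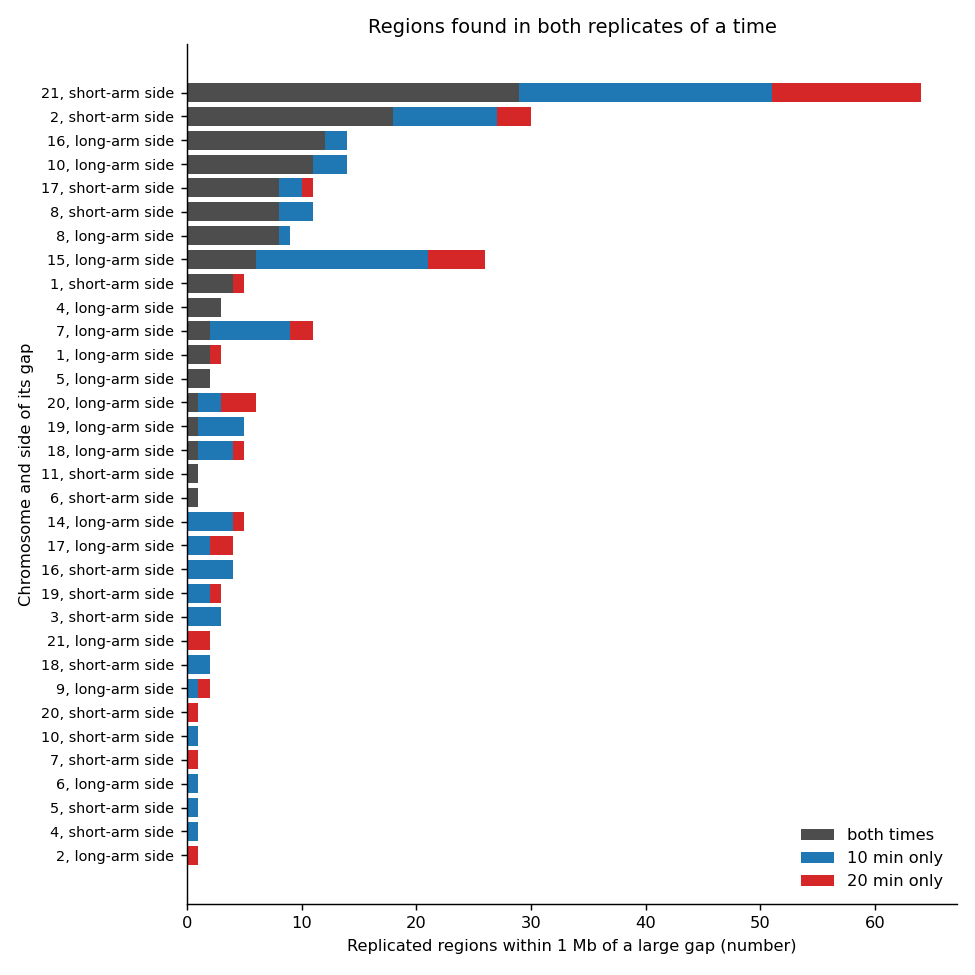
Number of replicated regions within 1 Mb of a large gap on each gap side that holds at least 1, split by the times at which they were replicated. The short-arm side of chromosome 21 leads with 29 regions of both times, followed by the short-arm side of chromosome 2 with 18.

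Peak density also differed between sides, in the same direction in each library at the extremes. It was highest on the short-arm side of chromosome 21 (680.5 and 545 peaks per Mb at 10 min, 559 and 409 at 20 min), followed by the long-arm sides of chromosomes 20, 16, 18 and 10, with means over the 4 libraries of 514, 501, 468 and 434. It was lowest beside the centromere of chromosome 9, with 6.25 to 35.0 peaks per Mb on its short-arm side and 15.3 to 50.6 on its long-arm side. The long-arm sides of chromosomes 22 and 14 and the short-arm side of chromosome 1 came next, with means of 96.8, 184 and 197. Over the 18 chromosomes with both sides no shared direction was found: the log2 ratio of short-arm over long-arm density was −0.01 and −0.07 at 10 min and −0.13 and 0.01 at 20 min (exact sign-flip p = 0.25). The short-arm side was denser in all 4 libraries on 4 chromosomes and the long-arm side on 8.

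The leading region of each of the 10 best sides was intergenic and 9 of the 10 lay within 29.0 kb of a gap. Regions were ranked by −log10 q of their best site and ordered by the worst rank over the 4 libraries. The first was on chromosome 1 from 121482637 to 121485456 and reached the edge of the centromere gap. Its highest forward summit stood at 15157 and 4574 fragments in CPT10 replicates 1 and 2 and at 9731 and 5021 in CPT20 replicates 1 and 2, and its highest reverse summit at 11052, 4708, 6917 and 4298. Its summits recurred at the same place, the forward ones within 11 bp of each other over the 4 libraries and the reverse ones within 5 bp. Most regions agreed less closely. Of the 118 regions of both times, 28 had forward summits within 10 bp over the libraries, and 28 had such reverse summits. The median ranges were 183.5 bp (forward) and 104 bp (reverse). The second was on chromosome 7 from 61967785 to 61970647, 913 kb from the gap on the long-arm side, with forward summits of 9520, 3956, 8150 and 4570 fragments in the same order. Its 2863 bp held 9 CENP-B boxes, and its best self-match at a lag of up to 2500 bases was at 340 bases, with 69.6% of positions equal.

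The third, on chromosome 6 from 58776099 to 58779555, lay 0.61 kb from the gap and had reverse summits of 2497, 1076, 2001 and 1437 fragments. Its highest forward summits ranged over 2581 bp between libraries and its highest reverse summits over 17 bp. The fourth, on chromosome 10 from 42383929 to 42385900, had reverse summits of 2196, 1052, 1627 and 1008 fragments and a GGAAT density of 46.1 per kb counting both strands. The fifth began 5 bp from the gap of chromosome 16 and ran for 11112 bp, from 46385807 to 46396918, with 45.9 GGAAT per kb. Its forward summits of 3306, 1322, 2604 and 1567 fragments were above its reverse summits of 1138, 478, 728 and 560 in each library.

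The remaining leading regions lay on the short-arm side of chromosome 8 (43831073 to 43831728), the short-arm side of chromosome 2 (92324747 to 92325378), the long-arm side of chromosome 8 (46844026 to 46844467), the long-arm side of chromosome 19 (27731820 to 27732807) and the short-arm side of chromosome 17 (22252720 to 22253394). Each region held 1 to 3 CENP-B boxes. On chromosomes 2, 8 and 17 the reference sequence matched itself at 97.7 to 98.5% of positions when shifted by 1018, 1868, 1868 and 2379 bases, the best lags up to 2500 bases, which are 5.95, 10.9, 10.9 and 13.9 times the monomer period of 171 bases. Forward summits ranged from 72 fragments (chromosome 17, CPT20 replicate 2) to 751 (short-arm side of chromosome 8, CPT10 replicate 1).

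The order of the regions was much the same in all libraries. Over the 118 regions of both times, Spearman's rho of the fold enrichment, taken as the geometric mean of the highest forward and reverse folds, was 0.90 to 0.94 for the 6 pairs of libraries. This is a description over regions selected for being found in all libraries, which share the reference and the peak caller. Levels were not shifted between the times in a common direction: the median log2 ratio of 20 over 10 min was −0.25 between the replicates numbered 1 and 0.02 between those numbered 2. The ratio was below 0 in both pairs for 41 regions and above 0 in both for 16. Of the leading 10, the region on chromosome 19 had the lowest ratios, −1.12 and −0.80 on the log2 scale, with reverse summits of 474 and 204 fragments at 10 min and 217 and 147 at 20 min.

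The regions replicated at a single time were weaker. The best of 10 min only lay on chromosome 19 from 27733035 to 27733433, 1.25 kb from the gap, with forward summits of 215 and 140 fragments at 10 min and of 96 and 70 at 20 min, and no reverse peak in CPT20 replicate 1. The next lay on chromosome 7 from 61971065 to 61971302 and again on chromosome 19 from 27738144 to 27738676, beside the leading regions of those sides. The best of 20 min only lay on chromosome 17 from 25678864 to 25680229 in the pseudogene SYPL1P2, with forward summits of 23 and 17 fragments at 10 min and 29 and 19 at 20 min. It was followed by chr1:121359970-121360432 and chr2:91813136-91814135, the latter in LSP1P5, and each of these had peaks at 10 min as well.

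Forward and reverse summits coincided in a larger share of replicated sites near gaps than of replicated sites elsewhere. The signed offset of a site's best pair is the forward minus the reverse summit position. Among replicated member sites its median was 6 and 8.5 bp at 10 min and 4.5 and 10 bp at 20 min. Among replicated sites beyond 1 Mb the medians were 118 and 139 bp at 10 min and 155 and 165 bp at 20 min. Offsets to the left and to the right cancel in these medians, so they do not give the usual distance between the summits. The 2 summits lay within 20 bp of each other in 32.3% (76 of 235), 28.6% (72 of 252), 34.7% (61 of 176) and 30.5% (57 of 187) of replicated member sites. The shares elsewhere were 5.51%, 5.49%, 3.49% and 4.28%. The mean difference was 26.8 ± 3.3 percentage points (SD, n = 4), higher in 4 of 4 libraries (exact sign-flip p = 0.125). Replication was scored from overlaps that the 2 libraries of a time share, so these 4 values are not independent. The 20 bp limit and this comparison were chosen after the summits were seen.

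The share of coinciding summits differed with the sequence and the strength of the sites. Among sites in regions of both times with a CENP-B box, 63.4 to 68.4% had summits within 20 bp, and in regions rich in GGAAT 50 to 70% did. In regions of both times with neither, the share was 7.5 to 21.5%. Without all sites that overlap a region with a box or rich in GGAAT, the mean difference from sites elsewhere was 8.10 percentage points. Among member sites whose paired peaks were both strong the share was 37.8 to 58.5%, against 2.63 to 4.8% of such sites elsewhere. Member sites that were not replicated resembled the rest of the genome more closely, with 7.0 to 9.32% against 6.05 to 7.19%. In some leading regions the strongest forward and reverse summits were far apart instead: the forward minus the reverse position was −500 to −492 bp on chromosome 7 and −352 to −317 bp on chromosome 10, so that the forward summit lay to the left, the opposite of the order described for a break.

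**Figure D3:**
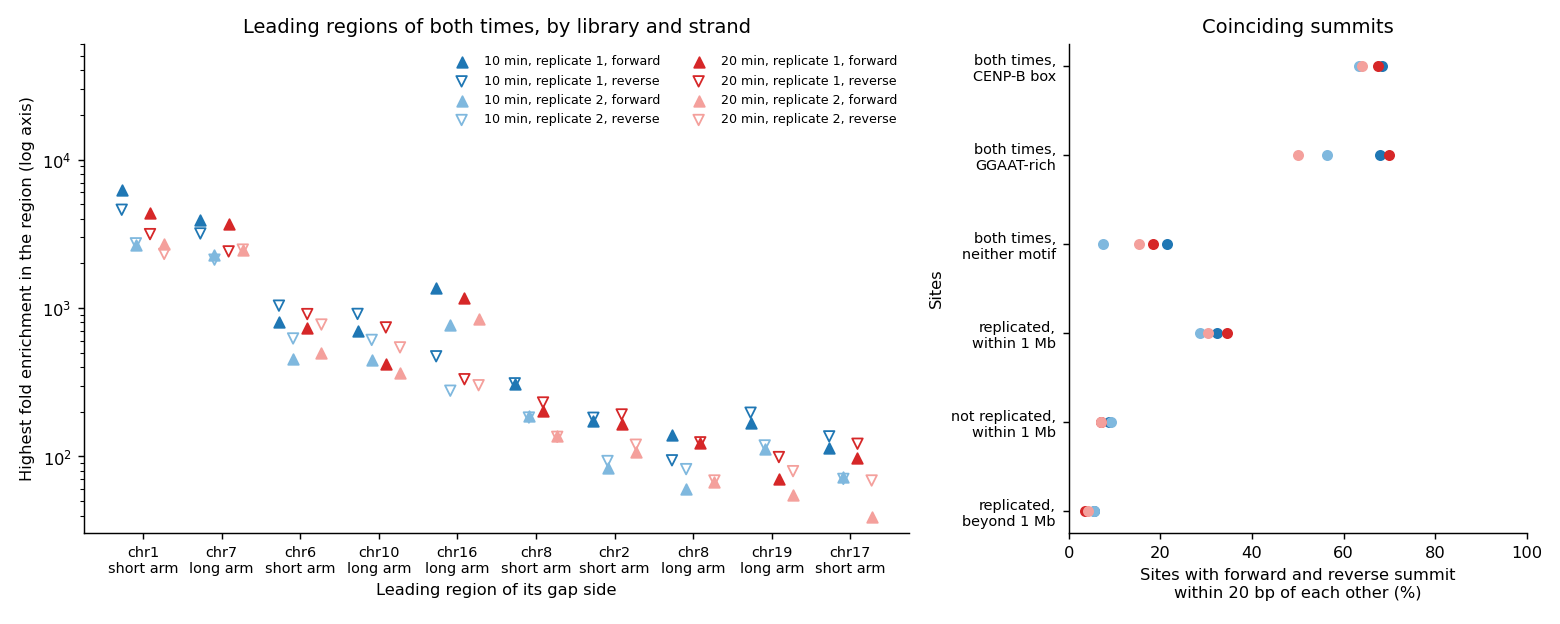
Left, the highest forward (filled) and reverse (open) fold enrichment in the leading region of each of 10 gap sides, by library, on a log axis, from 6206 on chromosome 1 to 39.2 on chromosome 17. Right, the share of sites whose forward and reverse summits lie within 20 bp, by library (same colours), which is 28.6 to 34.7% for replicated sites within 1 Mb of a gap and 3.49 to 5.51% for those beyond.

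Satellite sequence took a larger share of the regions of both times than of the sequence around them. The sequence within 1 Mb of the gaps was cut into 129336 windows of 300 bases, of which 617 had their centre in a region of both times. A GGAAT density of at least 20 per kb was found in 30.5% of those windows (188 of 617) and in 1.75% of windows outside any replicated region. A CENP-B box was found in 9.72% (60 of 617) and 0.57%. A tandem period of 171 bases (within 1 base, at least 60% of positions equal at that lag) was found in 10.9% and 5.02%. Windows in regions of 10 min only gave 7.39%, 5.84% and 8.17% for the 3 features, and those of 20 min only gave 10.3%, 0 of 107 and 4.67%. A count of 0 in 107 windows allows a share of up to 2.80%. Neighbouring windows share their repeat array and are not independent, so the shares carry no test.

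Counted by region, 36 of the 118 regions of both times held a CENP-B box, 23 were rich in GGAAT and none met both criteria. The 23 regions lay on the long-arm sides of chromosomes 16 (12), 10 (10) and 1 (1). The 36 regions lay on 11 sides, with 8 on the short-arm side of chromosome 2 and 7 and 6 on the short- and long-arm sides of chromosome 8. Of the 20 regions with the best rank, 10 held a box and the other 10 were rich in GGAAT. The median fold enrichment of the regions with a box was 76.5 and 42.0 at 10 min and 57.3 and 41.5 at 20 min. That of the regions rich in GGAAT was 103, 65.2, 51.7 and 53.9 in the same order, and that of the 59 regions with neither was 10.3, 8.59, 8.35 and 8.32.

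Over all summits near the gaps no excess spacing at the monomer period was seen. Of neighbouring same-strand summits between 100 and 2000 bases apart, 6.24%, 5.64%, 5.73% and 6.02% in the 4 libraries were spaced within 5 bases of a multiple of 171 bases, against 6.38%, 6.38%, 6.41% and 6.40% elsewhere. Evenly spread distances would give 6.43%. Among strong peaks the shares were 6.06%, 8.0%, 2.88% and 5.77% near gaps, with no common direction against 6.58%, 4.99%, 6.39% and 7.07% elsewhere. Only 5.06% of the windows near gaps had the period, so these shares do not show how summits lie within the arrays.

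**Figure D4:**
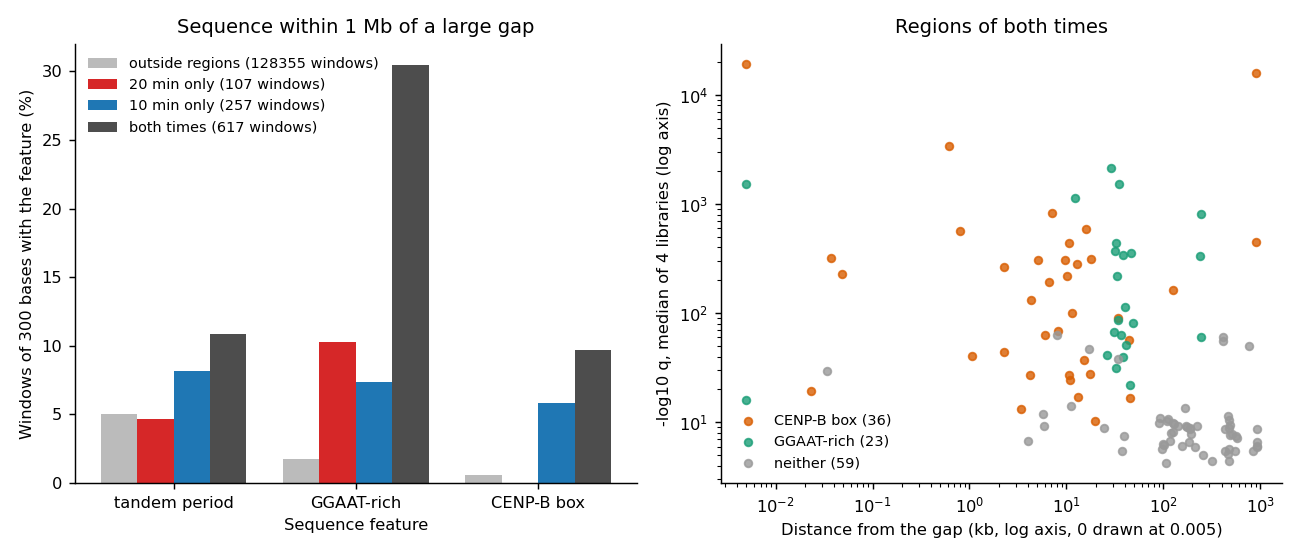
Left, the share of 300-base windows within 1 Mb of a large gap that have a tandem period of 171 bases, a GGAAT density of at least 20 per kb or a CENP-B box, by the kind of replicated region they lie in. Right, −log10 q (median of the 4 libraries) against distance from the gap for the 118 regions of both times, where the 36 with a CENP-B box and the 23 rich in GGAAT make up the upper part and the 59 with neither lie mostly below.

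The 59 regions with neither motif were weaker, and 29 of them lay on the short-arm side of chromosome 21 and 10 on that of chromosome 2. Of the 59, 9 met the criterion for the tandem period of 171 bases, with 60.6 to 82.5% of positions equal, and 7 of these 9 lay within 50 kb of a gap. On chromosome 21, 9 regions between 10702001 and 10752966 had their best lag within 1 base of that period, with 49.4 to 82.5% of positions equal, and 2 of them met the criterion. The best on chromosome 21, from 9825736 to 9826383, had a G+C content of 82.3% and overlapped the microRNA genes MIR3648 and MIR3687. Its highest reverse summit stood at 103 and 56 fragments at 10 min and 155 and 59 at 20 min. Another 13 lay in an unnamed long noncoding RNA gene. Of these, 2 also lay in BAGE2, an overlapping pseudogene of the B melanoma antigen family. On the short-arm side of chromosome 2, 6 lay in LSP1P5, annotated as a long noncoding RNA. Whether their reads map to 1 place only was not tested.

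Few regions lay on protein-coding genes. Of the 118 regions of both times, 27 (22.9%) had their midpoint in an annotated gene of any type, 6 of them in an exon, against 90.1% of the 726 regions of both times beyond 1 Mb. In the other classes the shares near gaps were 30.5% (10 min only) and 52.5% (20 min only), against 75.0% and 85.6% elsewhere. The share of the sequence itself that lies in genes is not given here, so these values do not show whether regions avoid genes. Protein-coding genes overlapped by a region of both times were ID1 on chromosome 20, an inhibitor of basic helix-loop-helix transcription factors, and FNTA on chromosome 8, the alpha subunit of an enzyme that attaches farnesyl groups to proteins, together with an unnamed gene model that overlaps FNTA. The region over ID1 ran from 30187842 to 30196577, 768 kb from the gap, with reverse summits of 57 and 48 fragments at 10 min and 103 and 72 at 20 min. Another 3 regions lay in DANCR on chromosome 4, a long noncoding RNA gene that hosts the small nucleolar RNA SNORA26, 919 to 923 kb from the gap. HM13, which encodes the signal peptide peptidase, and BCL2L1, which encodes the apoptosis regulator BCL-XL, both on chromosome 20, were overlapped by regions of 10 min only and by separate regions of 20 min only. The HM13 regions were neighbours, from 30159554 to 30160873 and from 30160961 to 30162715. The first, of 10 min only, had a site in CPT20 replicate 1 (−log10 q 3.55). The second, of 20 min only, had one in CPT10 replicate 1 (19.8). Both BCL2L1 regions of 20 min only had a site in CPT10 replicate 1 (6.30 and 2.49). The first of these, from 30301164 to 30302379, also had one in CPT10 replicate 2 (3.75). The BCL2L1 region of 10 min only had no site at 20 min.

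Over both sides together the strand balance was close to that elsewhere. Forward peaks made up 41.8% and 49.6% of member peaks at 10 min and 49.4% and 50.3% at 20 min, against 41.8%, 50.2%, 50.04% and 50.2% beyond 1 Mb. The mean difference was −0.26 ± 0.40 percentage points (SD, n = 4, exact sign-flip p = 0.5). CPT10 replicate 1 had fewer forward than reverse peaks throughout the genome, so strand shares were compared within each library only. Non-overlapping neighbours less than 150 bp apart stood in reverse-then-forward order 302, 211, 216 and 85 times and in forward-then-reverse order 331, 195, 225 and 59 times. The mean log2 ratio of these counts was 0.11 ± 0.29 (SD, n = 4, exact sign-flip p = 0.75), and without CPT20 replicate 2 it was −0.03.

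The balance differed between the sides of the gaps. On the short-arm side forward peaks made up 39.5% (3179 forward and 4859 reverse peaks) and 45.5% at 10 min and 45.7% and 44.3% at 20 min, below the rest of the genome in each library. On the long-arm side they made up 43.8%, 53.2%, 52.5% and 55.7%, above it in each library. In these peak counts both departures ran towards peaks whose reads point away from the gap that set the sides. The short-arm sides of chromosomes 2 and 21 also held sequence to the right of a second large gap, where reverse reads point towards that gap. Summit heights in the replicated regions of the long-arm side ran the other way: the reverse summit was the higher in all 4 libraries in 23 of 49 regions of both times and the forward one in 5, with median log2 ratios of forward over reverse fold of −0.38 and −0.45 at 10 min and −0.61 and −0.44 at 20 min. On the short-arm side the counts were 11 and 10 of 69. All 23 regions rich in GGAAT lay on long-arm sides. In all 4 libraries the reverse summit was the higher in 15 of these 23 regions and the forward one in 3. The part of this sequence in the long-arm counts was not tested. The long-arm side exceeded the short-arm side by 4.28 and 7.69 percentage points at 10 min and by 6.74 and 11.5 at 20 min (mean 7.55 ± 2.99, SD, n = 4, exact sign-flip p = 0.125), and the difference between the times was within their spread (exact permutation p = 0.667). This comparison was chosen after the values by side were seen.

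The difference between the sides was seen on most chromosomes and faded with distance. Of the 18 chromosomes with both sides, the long-arm side had the higher forward share in 13 and 15 at 10 min and in 14 and 16 at 20 min, and 11 chromosomes had it in all 4 libraries. By the mean over libraries the difference was largest on chromosome 10, where forward peaks made up 35.9, 39.3, 38.5 and 36.9% on the short-arm side and 50.5, 65.2, 59.5 and 65.9% on the long-arm side. Chromosome 3 ran the other way in all 4 libraries, with 46.8, 52.6, 52.1 and 53.7% on the short-arm side and 36.1, 43.7, 45.7 and 40.1% on the long-arm side. By distance, the long-arm minus short-arm difference was 5.39, 6.95, 7.98 and 10.8 percentage points between 1 and 1.5 Mb and 3.26 to 8.51 between 1.5 and 2 Mb. Between 3 and 5 Mb it was 0.37 to 1.69, and between 5 and 10 Mb −2.00 to −0.71. Within 100 kb of the gaps, where most strong regions lie, it had the same sign in all libraries from 10 to 50 kb and mixed signs in the other 2 bins. Without peaks overlapping a replicated region the mean over all libraries was 7.96.

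**Figure D5:**
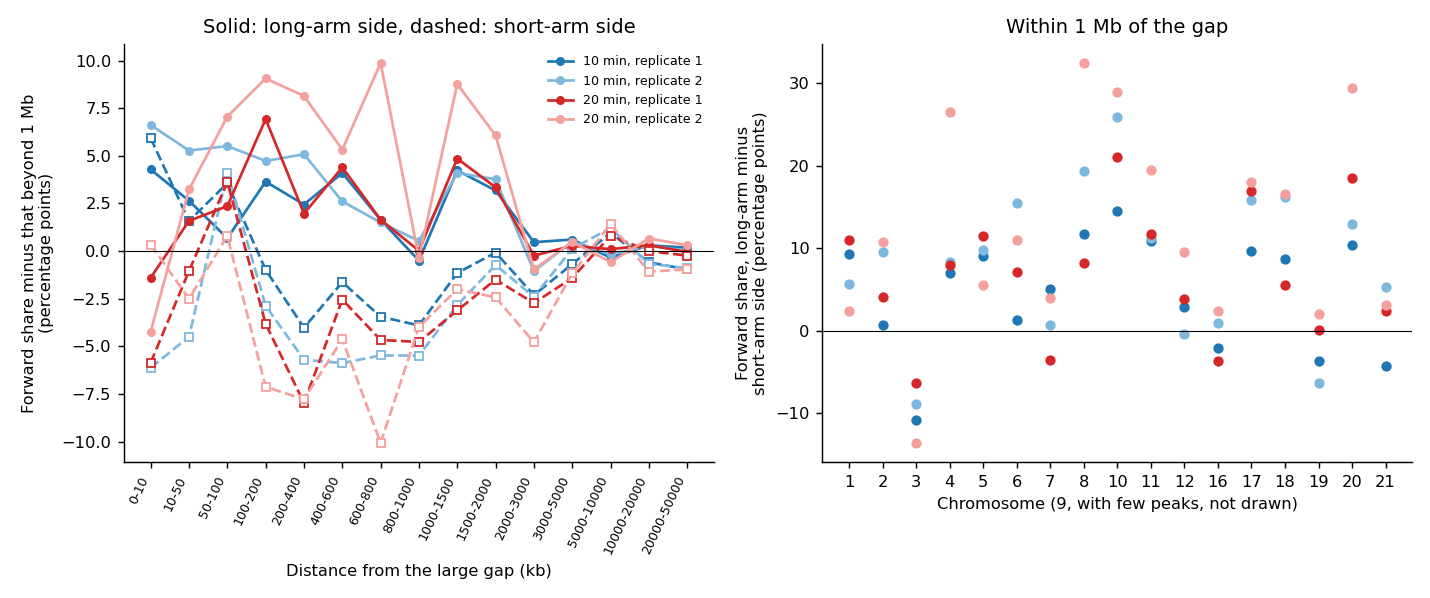
Left, the forward share of peaks minus that of all peaks beyond 1 Mb, in percentage points, by distance from the gap, for the long-arm side (solid) and the short-arm side (dashed), 1 pair of lines per library. From 100 kb to 2 Mb the solid lines lie above the dashed ones in each library, and past 3 Mb the lines come together. Right, the forward share on the long-arm side minus that on the short-arm side for each chromosome, 1 point per library, with chromosome 3 below 0 in all 4 and chromosome 9, which has few peaks, not drawn.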

How the data were processed

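Per the study's methods, the authors trimmed reads with Trim Galore 0.6.5, aligned them to hg19 with Bowtie2 2.5.0, filtered with SAMtools 1.16.1 for properly paired reads of mapping quality 30 or more, keeping duplicates, and called peaks with MACS2 2.2.7.1 for each library and strand at a q-value of 0.05, with control as input and no local background. Replicates were not pooled. The deposited lists give a score, a fold enrichment, and for each peak the p-value and the q-value, both as −log10. Fold enrichment is a ratio of summit to expected height, with the constant given above added to both. The scores were not used. Summit heights in fragments were recovered from the fold grid (100% within 0.05 of a whole number). The study's later steps, removal of blacklisted regions and spike-in scaling, were not repeated, so regions that such a list would remove are kept. Reads from repeat copies outside the assembly can pile up on the copies it holds, and the part of this in the values was not tested.

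Gaps and sequence came from the GRCh37 primary assembly, which matches hg19 on the 22 chromosomes used, and genes from GENCODE lifted to it. This reference marks no repeats in lower case, so a planned share of repeat-masked bases was not computed. Counts were made in Python 3.11.15 with pandas 2.3.3, numpy 2.4.6 and scipy 1.17.1, and the statistics were tested on simulated data. The library is the replicate in all tests: two-sided exact sign-flip permutation tests over 4 libraries cannot go below p = 0.125, and permutations of 2 against 2 cannot go below 0.333. The methods name 2 experiments, both with each treatment time, and libraries with the same replicate number were paired on that basis, although no source ties the numbers to the experiments. Wilson intervals cover counting error only. Tests on replicated sites use overlaps that the 2 libraries of a time share, so their 4 values are not independent. Depth is given as the expected summit height, since read totals were not used here. The regions named are the best of each of the 10 leading gap sides and the 3 best of each single time, ordered by the library in which −log10 q ranked them lowest. Genes are the protein-coding ones overlapping a region of both times, and gap sides those 5 highest or lowest in density. Other genes, features and sides named were chosen after their values were seen. The members, lists and rules were chosen with earlier results of these data known. Alternatives changed the q threshold, distance, gap set, overlap, pairing, list length and libraries used.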

Additional observations from a re-analysis of the deposited data

Results flagged for a closer look

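The forward share of peaks differed between the sides of the gaps. It was higher on the long-arm than on the short-arm side by a mean of 7.55 percentage points and in 4 of 4 libraries (exact sign-flip permutation p = 0.125, the smallest that 4 libraries allow). The cause was not tested.

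Chromosome 3 had the opposite difference. The long-arm minus short-arm difference was −10.8 and −8.87 percentage points at 10 min and −6.33 and −13.6 at 20 min, a mean of −9.89, while 11 of the 18 chromosomes were higher on that side in all 4 libraries. The difference between chromosome 3 and the others was not tested.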

How the results depend on the processing

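The replicated share ratio, the strong peak share ratio, the forward share difference between the sides and the coinciding summits kept their direction under each alternative run. Their ranges were 1.70 to 2.74 and 0.60 to 2.43 on the log2 scale, and 5.99 to 9.59 and 8.10 to 37.6 percentage points. Values with libraries left out in turn were 1.85 to 2.11, 0.53 to 0.90, 6.24 to 8.64 and 25.4 to 28.1. For the replicated share and the coinciding summits, replication was still scored against the library left out. The values of these results with a library left out therefore do not show how far they depend on it. The alternatives for the difference between the sides and for the coinciding summits were chosen after seeing the data. With strong peaks only (−log10 q of 10 or more) the density ratio was 0.47 and the ratio of short-arm over long-arm density 0.0081, and 80, 71 and 63 regions were replicated at 10 min, at 20 min and at both. Within 200 kb the ratio of sides was 0.086, the forward share difference from the rest 1.35 percentage points, and 132 and 105 regions were replicated at 10 and 20 min. At centromere gaps alone these counts were 142 and 108. Where sites had to overlap by 50% of both, 114, 94 and 59 were replicated at 10 min, at 20 min and at both. With libraries left out in turn the density ratio was −0.27 to −0.22, the ratio of sides −0.07 to −0.03, the forward share difference −0.38 to −0.13, and the order ratio −0.026 (without CPT20 replicate 2) to 0.19. The cause of these changes was not tested.

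With the replicate number as a replicate block, the time ratio of sites was −0.74, against −0.62 without it, and both pairs had fewer sites at 20 min. Leaving out libraries gave −1.47 to −0.09 (without CPT20 replicates 1 and 2). Lists cut to equal length gave −0.02. The lowest summits held 4 to 6 fragments, and the part of depth in the calls was not tested.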
